A study of Mus musculus with 76 samples.

Results

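The clustered histone genes are the genes for the core histones H2A, H2B, H3 and H4 and the linker histone H1 that lie side by side in the mouse Hist1, Hist2, Hist3 and Hist4 clusters. They were taken as all entries of the count tables whose symbol starts with Hist1h, Hist2h, Hist3h or Hist4h, leaving out symbols with the pseudogene mark -ps, which gave 69 of the 48321 genes counted. By their symbols, 6 belong to H1, 20 to H2A, 18 to H2B, 12 to H3 and 13 to H4. GENCODE M21 annotates 2 of the H2A members, Hist1h2aj and Hist1h2al, as pseudogenes although their symbols do not carry that mark. The Hist1 cluster on chromosome 13 holds 56 of them, Hist2 on chromosome 3 holds 10, Hist3 on chromosome 11 holds 2 and Hist4 on chromosome 6 holds 1.

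Polyadenylated RNA was sequenced from 76 mouse libraries, each from a single oocyte, a single embryo or one piece of extraembryonic ectoderm (ExE, the trophoblast tissue next to the epiblast) at embryonic day 6.5. The study compared wild type (WT) with a maternal knockout (matKO) of Ezhip, an inhibitor of the Polycomb complex PRC2 made in the oocyte. In a maternal knockout the egg comes from a female that lacks the gene. The sources used here do not give the knockout allele, how the deletion was driven, the strain or the father's genotype. There were 3 WT and 4 matKO oocytes, all labelled female. At the 2-cell stage there were 11 WT embryos (5 female, 6 male) and 12 matKO embryos (6 female, 6 male). The 14 WT blastocysts were 6 female and 8 male, and the 14 matKO blastocysts 7 of each sex. ExE came from 10 WT embryos, 6 female and 4 male, and from 8 matKO embryos, 5 female and 3 male. Nothing in the labels says which samples share a mother or litter, so the spread between samples may understate the spread between litters.

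Most clustered histone genes are switched on in S phase to package new DNA. Their mRNA normally ends in a short stem-loop instead of a poly(A) tail, and that stem-loop is bound by SLBP and cut with the help of the U7 small nuclear RNP. When the cut is missed, transcription runs on to a later poly(A) signal, and polyadenylated forms of this kind are known from differentiated cells and other cells outside S phase. A poly(A) library therefore measures the polyadenylated part of histone RNA, and the levels below say nothing about the tail-less part.

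The stem-loop is shown for 6 members because it separates the kinds of transcript that the libraries could capture. A 16-base pattern, with the stem sides GGNNCT and AGNNCC pairing around the loop TNTN, was searched on the sense strand of the GENCODE M21 transcripts. It was present in 48 of 77 member transcripts (62.3%), from 46 of the 69 genes, and in 24 of 141690 other transcripts (0.0169%). The pattern is printed in capitals, with 5 bases on each side, from mm10.
Hist1h1c, an H1 linker gene, chr13:23739512-23739527, plus strand: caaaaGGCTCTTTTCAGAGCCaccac
Hist1h4i, an H4 gene, chr13:22040966-22040981, minus strand: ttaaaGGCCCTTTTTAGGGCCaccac
Hist1h2bg, an H2B gene, chr13:23571843-23571858, plus strand: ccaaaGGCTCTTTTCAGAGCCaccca
Hist3h2a, an H2A gene, chr11:58955172-58955187, plus strand: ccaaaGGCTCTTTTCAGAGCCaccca
Hist1h3c, an H3 gene, chr13:23745047-23745062, minus strand: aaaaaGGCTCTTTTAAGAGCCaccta
Hist1h4a, an H4 gene, chr13:23760800-23760815, minus strand: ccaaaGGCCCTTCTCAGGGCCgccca

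These transcripts differ in how much sequence follows the stem-loop. The annotated Hist1h1c transcript continues for 840 bases after it and Hist1h4i for 330 bases, each with 2 poly(A) signals (AATAAA or ATTAAA) in that stretch. Hist3h2a continues for 1643 bases. Hist1h2bg has 155 bases after the stem-loop, of which 26 lie in the counted interval, and Hist1h3c has 74 bases, of which 34 were counted. Hist1h2bc, the H2B gene with the highest level of all members, has no match in its annotated transcript, which has 2 exons, a 742-base 3′ UTR and 1 poly(A) signal. Hist2h2be, another H2B gene, also has no match in its 2192-base 3′ UTR. Of the 23 members without a match, 13 have annotated transcripts that all stop at the stop codon, so their ends cannot be read from this annotation.

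Levels are given in CPM (counts after scaling every library total to 1000000), and levels of different genes are compared in CPM per kilobase of counted length (CPM per kb). At least 1 count was found for 63 of the 69 members. The other 6, Hist2h2aa1, Hist2h2aa2, Hist2h3c1, Hist2h3b, Hist2h2bb and Hist1h2af, had 0 counts in every library. Of those 6, all 50-base windows of the first 5 are shared exactly with another gene, and 94.0% of the windows of Hist1h2af are. Over all members, 36 share more than 50% of their windows with another gene and 25 overlap another counted gene. The sources used here do not say how reads with several matches, or on either strand, were counted, so the split of reads between near-identical members is uncertain. Hist1h2bc shares 30.6% of its windows, Hist1h2bg 49.7%, Hist1h4i 28.9%, Hist1h1c 8.54%, Hist1h3c 46.99%, and Hist1h1a and Hist2h2be none. The shared windows of Hist1h2bc occur in 220 other genes, so not only in members, and those of Hist1h2bg in 14.

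Ezhip, listed under its older symbol AU022751, followed the labels where it is expressed. It was at 1263 ± 280 CPM (SD, n = 3) in WT oocytes and 0.288 ± 0.210 CPM (n = 4) in matKO oocytes, and at 160 ± 92.0 against 3.29 ± 5.51 CPM in 2-cell embryos (n = 11 and 12). Library totals ran from 1049224 counts in a 2-cell embryo to 31985958 in a blastocyst. Marker lists for each stage were present at their own stage, and markers of other cells were also found. Summed cumulus and granulosa markers (12 genes) reached 3022 CPM in oocytes and 1971 CPM in 2-cell embryos, and summed decidua and uterine stroma markers (11 genes) reached 869 CPM in ExE. The identifiers in the labels start with D707T for all oocytes and 2-cell embryos. In ExE the prefix is D1042C for all WT and D707T for all matKO libraries, so that the effects of genotype and of prefix cannot be told apart there. The labels do not say what the prefix stands for.

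As a share of library counts, polyadenylated RNA of the clustered histone genes was, by group medians, highest in oocytes, lowest in 2-cell embryos and intermediate later. Levels are relative to the library total, so a change of total RNA per oocyte or embryo is not seen. That limit holds for every comparison of stages below. The summed level of the 69 members was 310, 335 and 431 CPM in the 3 WT oocytes and 200, 212, 240 and 266 CPM in the 4 matKO oocytes. The WT 2-cell embryos lay between 11.3 and 33.4 CPM (median 21.8), and the matKO 2-cell embryos between 10.96 and 74.5 CPM (median 24.03). Thus every oocyte stood above every 2-cell embryo. Blastocysts lay between 29.9 and 54.9 CPM (median 40.3) in WT and between 22.98 and 71.7 CPM (median 52.9) in matKO. ExE samples lay between 63.4 and 115 CPM (median 83.4) in WT and between 41.4 and 156 CPM (median 118) in matKO. In blastocysts and ExE, as in any sample of several cells, fewer cells of a type and less RNA per cell cannot be told apart.

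**Figure D1:**
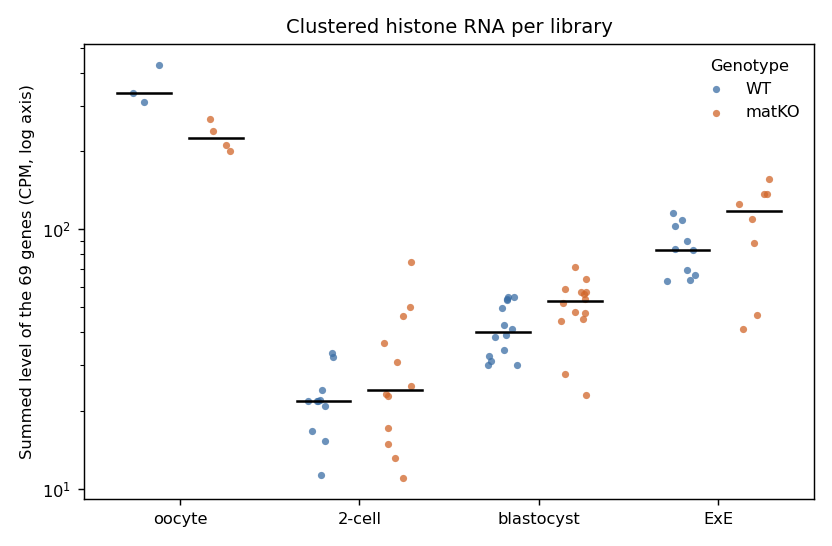
Summed level of the 69 clustered histone genes in each of the 76 libraries, in CPM on a log axis, by stage and genotype; each point is 1 library and each bar the group median. All 7 oocytes lie at or above 200 CPM and all 23 2-cell embryos at or below 74.5 CPM.

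The summed level was carried by a few genes, and the leading class changed with the stage. In WT oocytes the H2B members summed to 316 ± 58.9 CPM (n = 3), against 15.98 for H4, 12.9 for H1, 9.09 for H3 and 4.67 for H2A. Hist1h2bc alone made up 75.6% of the summed level in WT oocytes and 68.3% in matKO oocytes, with Hist1h2bg next at 9.91% and 8.46%. In 2-cell embryos Hist1h4i led, with 26.9% in WT and 36.1% in matKO. In blastocysts Hist1h1c (25.6% and 26.7%) and Hist1h4i (21.7% and 25.4%) led. In ExE Hist1h2bc led again with 44.6% and 43.2%, followed by Hist1h1c and Hist1h4i in WT and by Hist1h4i and Hist1h1c in matKO. These shares and class sums are in CPM without division by length, so longer genes weigh more. Per length the blastocyst order was reversed, with stage means of 15.1 CPM per kb for Hist1h4i and 7.76 for Hist1h1c. The number of members with a stage mean of at least 1 CPM was 14 for oocytes, 6 for the 2-cell stage, 7 for blastocysts and 6 for ExE.

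**Figure D2:**
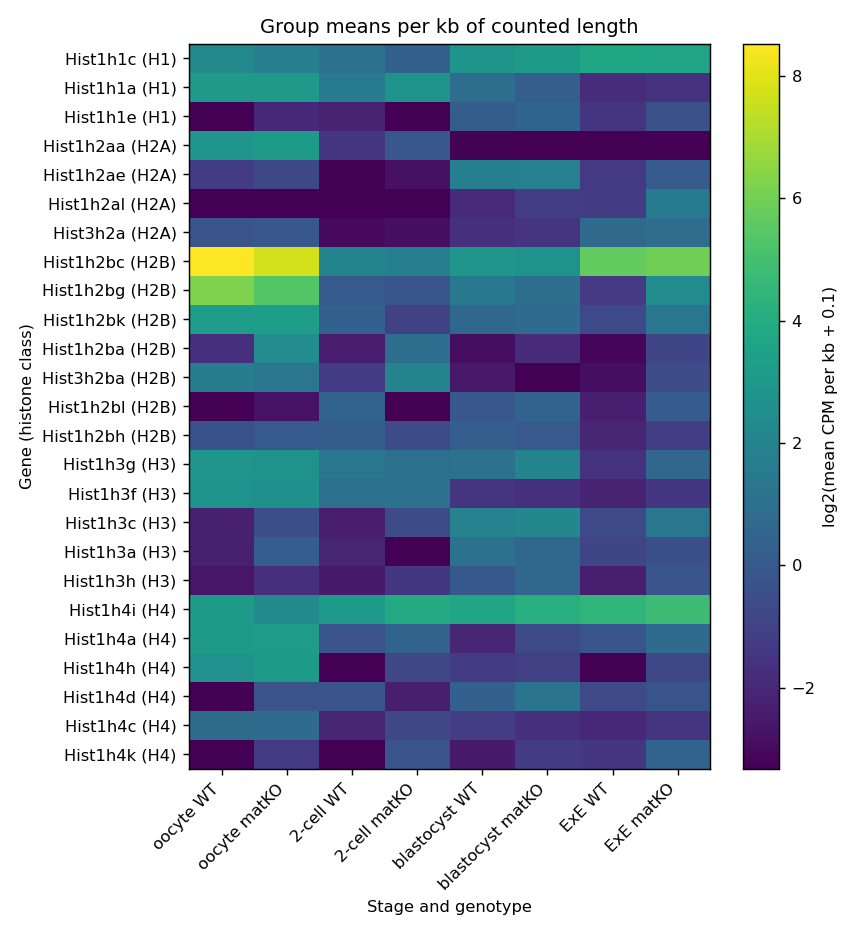
Mean level in CPM per kb (log colour scale after adding 0.1) of the 25 members that reach 1 CPM per kb in at least one of the 8 groups of stage and genotype. Hist1h2bc is the brightest gene in oocytes (279 CPM per kb over both genotypes) and in ExE (56.0 CPM per kb), and Hist1h4i in 2-cell embryos and blastocysts.

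Linker histone genes came in 3 patterns. Hist1h1c, which encodes the somatic linker H1.2, had stage means, in CPM per kb, of 3.84 for oocytes, 1.58 for 2-cell embryos, 7.76 for blastocysts and 12.4 for ExE. Hist1h1a, which encodes H1.1, was lower at each later stage, with 8.36, 4.83, 1.46 and 0.205 CPM per kb in that order. The remaining somatic linkers stayed below Hist1h1c at every stage and were highest in blastocysts. There Hist1h1b had 0.486, Hist1h1d 0.694 and Hist1h1e 1.16 CPM per kb. In ExE Hist1h1e, at 0.437 CPM per kb, lay above Hist1h1a. In CPM, blastocyst levels of Hist1h1b were 0.492 ± 0.676 in WT and 0.231 ± 0.384 in matKO (n = 14 each). In the same order Hist1h1d was at 0.373 ± 0.481 and 0.659 ± 1.57, and Hist1h1e at 0.760 ± 1.397 and 0.970 ± 1.27. The testis linker gene Hist1h1t had 91 counts in all, 81 of them in blastocysts (11 of 28 libraries, mean 0.185 CPM), and counts in 1 of the 7 oocytes, at 0.354 CPM.

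Among H2A genes the testis type had the highest mean level in oocytes. Hist1h2aa, which encodes the H2A partner of the testis H2B, was at 3.05, 2.61 and 2.68 CPM in WT oocytes and at 4.13, 1.90, 4.25 and 3.06 CPM in matKO oocytes. Hist3h2a, the next H2A gene there, had 0.783 CPM per kb. The stage mean of Hist1h2aa was 7.94 CPM per kb in oocytes, 0.561 in 2-cell embryos and 0.00286 in blastocysts, and it had 0 counts in ExE. It overlaps the predicted gene Gm44344, so its reads are uncertain. Hist1h2ae followed a different course, with oocytes at 0.426 CPM per kb, 2-cell embryos at 0.0222, blastocysts at 3.46 and ExE at 0.589. Hist1h2ba, the testis H2B gene, was at 0.0762, 0.174 and 0 CPM in WT oocytes and at 1.23, 0.569, 5.54 and 0.453 CPM in matKO oocytes. These ranges did not overlap, but the gene had too few counts for the fitted test, 84 over the 7 oocytes. Among genes that entered that test 8.08% did not overlap, and no such share was computed for genes below the filter.

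Among H2B genes Hist1h2bc and Hist1h2bg stood at 279 and 55.2 CPM per kb in oocytes, ahead of Hist1h2bk at 9.46. All 3 were low in 2-cell embryos, where Hist1h2bc was at 3.62 and Hist1h2bg at 0.865 CPM per kb. Hist1h2bc was back at 56.0 CPM per kb in ExE, whereas Hist1h2bg was at 2.45. Among H4 genes Hist1h4i was present at every stage, at 6.604, 11.8, 15.1 and 24.2 CPM per kb from oocytes to ExE, while Hist1h4a reached 9.09 CPM per kb in oocytes. Among H3 genes Hist1h3c was at 0.399, 0.331, 4.05 and 1.37 CPM per kb in the same order.

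**Figure D3:**
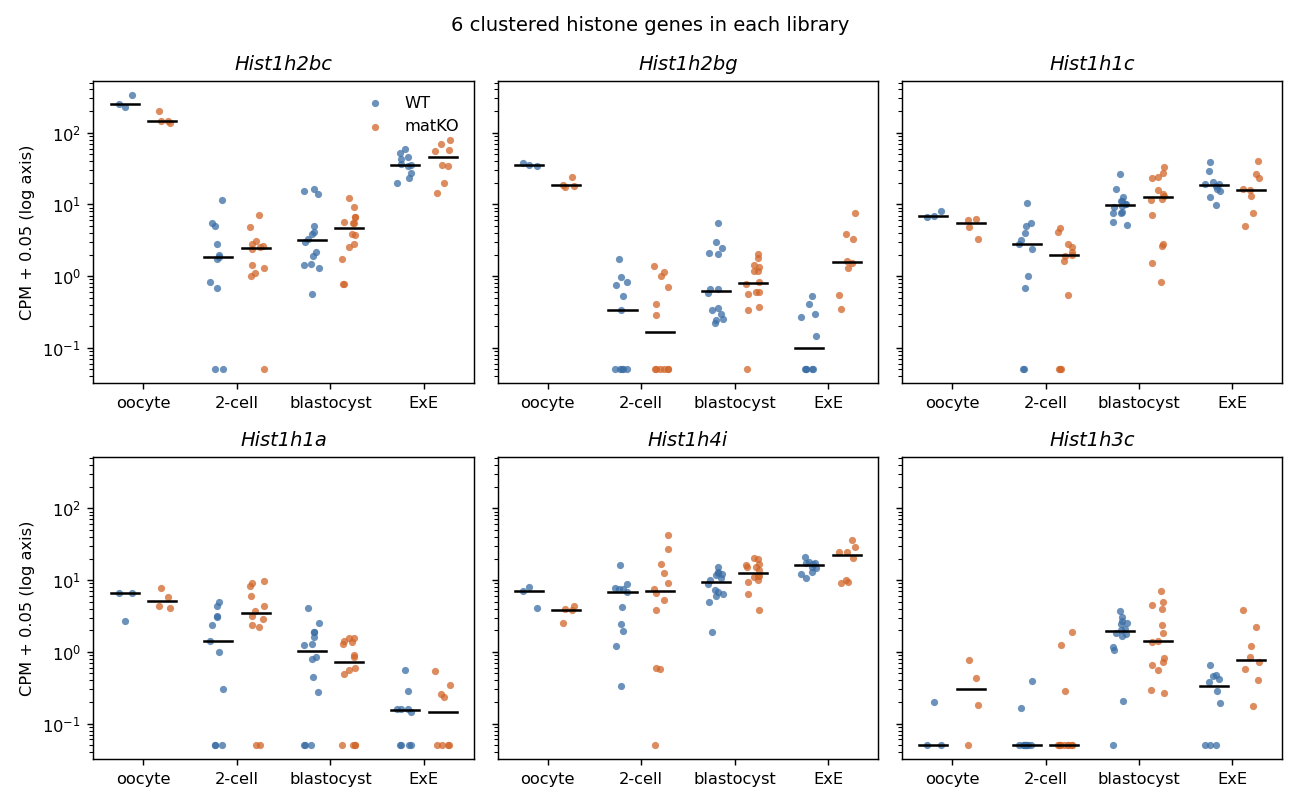
Level of 6 members in each library, in CPM plus 0.05 on a log axis, by stage and genotype; points are libraries, bars are group medians, and points at 0.05 are libraries with 0 counts. Hist1h2bc and Hist1h2bg drop from oocytes to 2-cell embryos in both genotypes, while Hist1h4i is present at all 4 stages.

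Members with a long and with a short stretch after the stem-loop had close median levels. The 14 members with at least 100 counted bases after the stem-loop had a median of 0.659 CPM per kb in the stage where each was highest, and the 32 with fewer counted bases had a median of 0.596. The 13 members without a match whose transcripts all end at the stop codon had a median of 0.538. The other 10 members without a match had a lower median, 0.212, and include the highest member, Hist1h2bc, at 279 CPM per kb. These medians are descriptions of an annotation that matches the counted length for 44 of 69 members.

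H2A and H2B genes often lie head to head and share the stretch of DNA between their starts. There were 13 such pairs of members within 500 bases, all of them an H2A with an H2B gene, with gaps of 235 to 305 bases between the counted intervals. The H2B gene had the higher stage mean in CPM per kb in 11 of 13 oocyte pairs, 10 pairs at the 2-cell stage, 8 in blastocysts and 11 in ExE. Few genes of these pairs reached 1 CPM per kb: 4 H2B and 1 H2A in oocytes and 1 and 0 at the 2-cell stage. In blastocysts they were 4 and 1, and in ExE 3 and 0. Every H2A gene of the 13 pairs overlaps another counted gene, and none of the H2B genes does. The sources used here do not say how reads in such overlaps were counted, and their part in these orders was not tested. The pair with the highest level was Hist1h2bc with Hist1h2ac, whose intervals lie 274 bases apart. In oocytes Hist1h2bc stood at 279 and Hist1h2ac at 0.619 CPM per kb, and in ExE at 56.0 and 0.0543. In Hist1h2bk and Hist1h2ah, 301 bases apart, the oocyte levels were 9.46 and 0.0133 CPM per kb, a wider ratio at lower counts. Hist1h2ac and Hist1h2ah were named after their values were seen. Only 476 bases of Hist1h2ac were counted although its longest annotated transcript has 2482, so reads in the remainder would not appear under its name. Hist1h2bg and Hist1h2ae, 286 bases apart, did not keep one order: 55.2 against 0.426 CPM per kb in oocytes, but 2.28 against 3.46 in blastocysts.

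**Figure D4:**
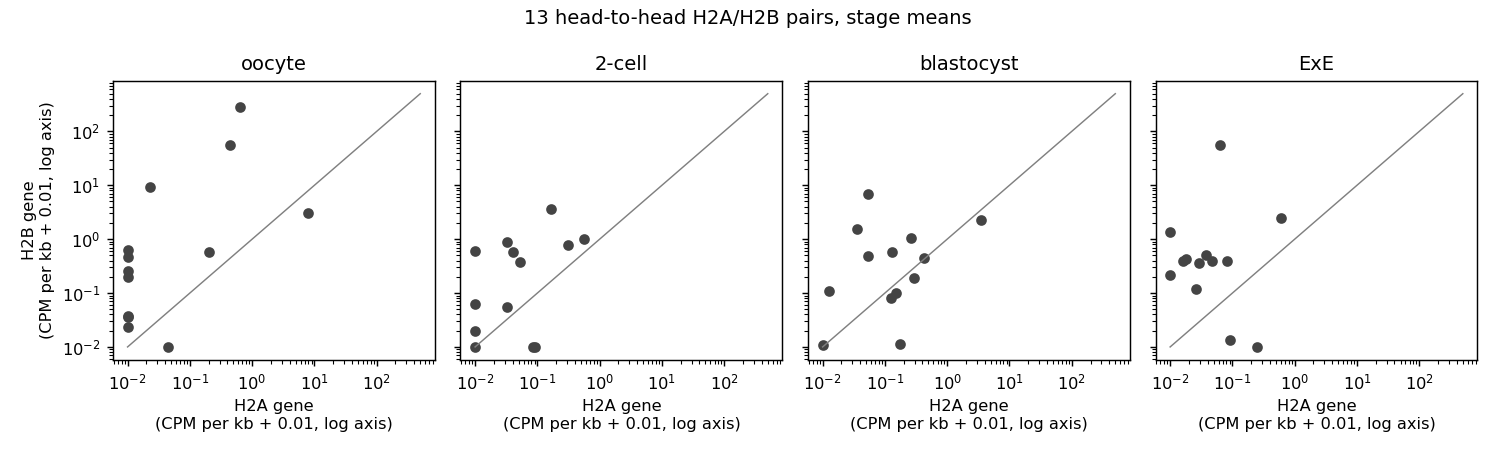
Stage means of the 13 head-to-head pairs, with the H2A gene on the x axis and the H2B gene on the y axis, both in CPM per kb plus 0.01 on log axes; each point is a pair and the grey line marks equal levels. Most points lie above the line, 11 of 13 in oocytes and 8 of 13 in blastocysts. Every H2A gene shown overlaps another counted gene, and none of the H2B genes does.

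The shared stretch between Hist1h2ac and Hist1h2bc is printed because it lies at the start of the member with the highest level. It covers chr13:23683960-23684198 of GRCm38.p6 (RefSeq), read in the direction of Hist1h2ac on the minus strand, so that Hist1h2bc starts at its left end on the opposite strand. Capitals mark the letters ATGCAAAT (the histone octamer), CCAAT and TATAA, each searched on both strands.
Hist1h2ac and Hist1h2bc: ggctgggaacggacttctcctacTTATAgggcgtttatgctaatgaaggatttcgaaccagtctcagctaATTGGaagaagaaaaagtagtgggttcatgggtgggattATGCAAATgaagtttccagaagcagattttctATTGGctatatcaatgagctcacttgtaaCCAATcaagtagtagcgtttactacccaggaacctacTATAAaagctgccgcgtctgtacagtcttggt
It holds 1 octamer, 3 CCAAT and 2 TATAA matches, with a TATAA match near each end. RefSeq windows from 250 bases before to 50 bases after the start were found for 61 members (62 windows), out of 68 matched by symbol and position. The octamer was present in 14 of these 62 windows (22.6%) and in 570 of all 32851 windows (1.74%). CCAAT was present in 85.5% of member windows and 37.4% of all, and TATAA in 79.0% and 24.9%. A match says only that these letters are there.

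The comparison of matKO with WT oocytes asked whether the egg differed before fertilization. Hist1h2bc was at 227, 338 and 249 CPM in WT oocytes and at 138, 198, 145 and 146 CPM in matKO oocytes, so that all matKO libraries lay below all WT libraries. Hist1h2bg was at 34.9, 33.9 and 37.9 CPM in WT and at 18.3, 18.4, 17.2 and 23.8 CPM in matKO oocytes, again without overlap. Hist1h1c showed the same order with a smaller gap, at 6.93, 8.01 and 6.73 against 3.29, 6.07, 4.72 and 6.19 CPM. Groups did not overlap for these 3 of 15 members tested, beside 8.08% of all 14838 genes tested.

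None of these differences passed the test across all genes. The log2 fold change of matKO over WT was -0.82 ± 0.21 (SE) for Hist1h2bc and -0.89 ± 0.25 for Hist1h2bg, each with an adjusted p of 0.763 in edgeR's quasi-likelihood test with Benjamini-Hochberg adjustment. Over the alternative settings their adjusted p ran from 0.143 to 0.997 and from 0.125 to 0.997. For Hist1h1c the change was -0.53 ± 0.42 (adjusted p = 0.879, edgeR). No member was called, beside 0.0202% of genes. At an unadjusted p under 0.05 there were 2 of 15 members and 930 genes, and DESeq2 called 0 members. The other leading members overlapped: Hist1h1a was at 2.67, 6.61 and 6.49 CPM in WT and 4.07, 4.36, 7.67 and 5.70 CPM in matKO, and Hist1h4i at 8.07, 4.09 and 7.05 against 4.26, 2.46, 3.89 and 3.78 CPM.

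Markers of other cells varied between the same oocytes. Summed granulosa markers were at 1055, 1309 and 2530 CPM in WT and at 628, 679, 988 and 3022 CPM in matKO oocytes, with overlap. Summed stroma markers were at 90.4, 118 and 149 CPM in WT and 18.99, 27.1, 28.6 and 49.01 CPM in matKO, without overlap, and their part in the result was not tested. With the granulosa level as a covariate, the log2 change of Hist1h2bc was -0.86.

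From the WT oocyte to the WT 2-cell embryo, the members that fell were of H2B, H2A and H4. Of 14 members tested, 7 were lower and 0 higher in 2-cell embryos, beside 46.4% of 16620 genes called in either direction (20.7% lower, 25.7% higher). Hist1h2bc went from the oocyte levels above to between 0 and 11.6 CPM (median 1.80, n = 11), and fell by 6.85 ± 0.75 in log2 (adjusted p = 3.61e-07, edgeR). Hist1h2bg went to between 0 and 1.68 CPM (median 0.283) and fell by 6.65 ± 0.92 (adjusted p = 7.22e-06, edgeR). For both genes no 2-cell embryo reached the lowest oocyte. A gene enters the test only if it is high enough in one stage, so members that were low at both stages could not add to these counts. A member can also enter through a single stage, as Hist1h4h below did through oocytes, and can then hardly change the other way. The direction of the calls is thus partly set by this filter, here and in the other steps, and the counts only describe the members tested.

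The other members that fell stood far below Hist1h2bg in the oocyte. The testis gene Hist1h2aa fell by 4.75 ± 1.33 in log2 (adjusted p = 0.00634, edgeR), with counts in 2 of 11 WT 2-cell embryos. Hist3h2a, with 56 counts over the WT oocytes and 3 over the WT 2-cell embryos, also fell (adjusted p = 0.00352), as did Hist1h4a by 3.70 ± 1.25 (0.0209) and Hist1h2bk by 2.97 ± 1.19 (0.0467). Hist1h4h, an H4 gene named because it passed the test, was at 2.67, 2.79 and 3.40 CPM in WT oocytes and had 0 counts in all 11 WT 2-cell embryos. That makes it at least 74.4-fold lower, with a floor of 3 counts over the group (adjusted p = 0.00109, edgeR). Groups did not overlap for 8 of the 14 members, beside 36.1% of genes.

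Linker genes and Hist1h4i did not pass the test over this step. In WT the change was -1.43 ± 1.04 for Hist1h1c, -1.65 ± 1.16 for Hist1h1a and -0.18 ± 0.92 for Hist1h4i, on the log2 scale. Hist1h4i lay between 0.283 and 16.4 CPM (median 6.89) in WT 2-cell embryos, around its oocyte values.

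In matKO the same step had 5 of 11 members lower and 0 higher, beside 53.4% of 14864 genes called in either direction (25.1% lower, 28.3% higher). Hist1h2bc went from 138 to 198 CPM down to between 0 and 7.07 CPM (median 2.43, n = 12) and fell by 6.08 ± 0.45 in log2 (adjusted p = 1.41e-09, edgeR). Hist1h2bg fell by 5.82 ± 0.86 (1.15e-05), Hist1h4h by 4.68 ± 1.21 (0.00301), Hist1h2aa by 3.77 ± 1.11 (0.00752) and Hist1h4a by 2.96 ± 1.18 (0.0393). Groups did not overlap for 3 of 11 members, Hist1h2bc, Hist1h2bg and Hist1h4h, beside 33.4% of genes. Hist1h4i had a value of +1.48 ± 1.02 (adjusted p = 0.230). Whether the step differs between genotypes was not tested.

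Genes that act on histone RNA were followed over the same step from lists of known factors. Of 12 genes for histone gene transcription, 8 rose and 1 fell in WT, and 8 rose and 1 fell in matKO. Npat, the activator at the histone locus body, rose by 3.29 ± 0.29 in log2 in WT, and Ccne1, the cyclin that acts on it, by 5.52 ± 0.41 (adjusted p = 2.73e-08 and 2.29e-09, edgeR). Of 15 genes for histone mRNA processing, 3 rose and 5 fell in WT and 2 rose and 5 fell in matKO. Lsm10, a subunit of the U7 particle, fell by 2.22 ± 0.31 in WT (adjusted p = 6.90e-06, edgeR), while Slbp stood at 604 ± 66.4 CPM in WT oocytes and 446 ± 134 in WT 2-cell embryos. Of 12 genes listed as replacement variants, most of which can be made outside S phase from polyadenylated mRNA, 4 rose and 2 fell in WT. In matKO 3 rose and 4 fell. H1foo, the oocyte linker histone, was at 3870 ± 818 CPM in WT oocytes, above the sum of all clustered members, and fell by 5.98 ± 0.38 (adjusted p = 2.25e-10, edgeR). Of 19 chaperones 4 rose and 4 fell in WT, and 5 rose and 5 fell in matKO. Of 18 S phase genes 7 rose and 3 fell in WT, and 3 rose and 4 fell in matKO.

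In 2-cell embryos the members varied widely within each genotype, and no genotype difference passed the test. Hist1h4i lay between 0.283 and 16.4 CPM (median 6.89) in WT and between 0 and 41.9 CPM (median 6.99) in matKO. Hist1h1a lay between 0 and 4.92 CPM (median 1.38) in WT and between 0 and 9.58 CPM (median 3.39) in matKO. Hist3h2ba, an H2B gene of the Hist3 cluster, had counts in 2 of 11 WT and 8 of 12 matKO embryos, with highest values of 1.27 and 9.85 CPM. All 3 overlapped between genotypes, as did the other members tested, beside 0.0483% of genes without overlap.

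Of 7 members tested 0 were called, beside 0.731% of 14506 genes, with 1 member and 2054 genes at an unadjusted p under 0.05. DESeq2 also called 0 members. The log2 change was +3.20 ± 1.20 for Hist3h2ba (adjusted p = 0.207), +1.26 ± 0.86 for Hist1h1a (0.528), +0.88 ± 0.71 for Hist1h4i (0.600), -0.91 ± 0.94 for Hist1h1c (0.700) and -0.08 ± 0.80 for Hist1h2bc (0.979), in edgeR's test. In the lists of 15 processing, 12 transcription, 12 variant, 19 chaperone and 18 S phase genes, none was called. The 2-cell groups also differed in other markers: summed granulosa markers had a median of 507 CPM in WT and 256 in matKO, and the 2-cell markers (4 genes) 169 and 731 CPM. The part of these differences in the values above was not tested.

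From the 2-cell stage to the blastocyst, Hist1h2ae, Hist1h3c and Hist1h1c rose in both genotypes, while other members of the same classes did not all rise. In WT 6 of 13 members were higher and 1 lower, beside 72.2% of 15899 genes called in either direction (32.0% higher, 40.1% lower). Hist1h2ae had 0 counts in 11 WT 2-cell embryos and lay between 0.202 and 2.56 CPM (median 1.66) in 14 WT blastocysts, at least 39.6-fold higher (adjusted p = 8.09e-07, edgeR). Hist1h3c went from between 0 and 0.342 CPM to between 0 and 3.61 CPM (median 1.87) and rose by 5.26 ± 0.94 in log2 (adjusted p = 1.47e-05). Hist1h1c went from between 0 and 10.5 CPM (median 2.77) to between 5.07 and 26.6 CPM (median 9.71) and rose by 2.38 ± 0.56 (4.43e-04). Only Hist1h2ae did not overlap between the stages, beside 22.2% of genes.

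Other members that passed in this step in WT are named because they did. Hist1h3e had 0 counts in the 2-cell embryos and was at least 14.0-fold higher (adjusted p = 1.72e-04, edgeR), and Hist1h3a rose by 4.15 ± 1.05 in log2 (8.81e-04). Hist1h2bg rose by 2.05 ± 0.89 (0.0399) and Hist1h3f fell by 2.44 ± 1.07 (0.0424). Hist1h4i (+1.04 ± 0.49, adjusted p = 0.0551) and Hist1h2bc (+1.34 ± 0.78, 0.125) did not pass.

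In matKO 4 of 9 members were higher and 3 lower in blastocysts, beside 74.6% of 14748 genes called in either direction (34.3% higher, 40.2% lower). Hist1h1c rose by 3.84 ± 0.67 in log2 (adjusted p = 7.53e-06, edgeR), Hist1h3c by 3.93 ± 0.88 (1.97e-04) and Hist1h2bc by 1.66 ± 0.53 (0.00587). Hist1h2ae, with 1 count over the 2-cell embryos and 355 over the blastocysts, rose as well (1.29e-05). Hist3h2ba went from 78 counts in the 2-cell embryos to 0 in all 14 blastocysts, at least 101-fold lower (6.04e-05). Hist1h3f fell by 2.40 ± 1.00 (0.0321) and Hist1h1a by 1.89 ± 0.79 (0.0319). No member was without overlap between the stages, beside 25.4% of genes.

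Among the listed regulators, calls over this step went both ways. Of the 12 transcription genes 4 rose and 8 fell in WT, Npat by 2.52 ± 0.18 and Casp8ap2, its partner in the locus body, by 3.24 ± 0.27 in log2 (adjusted p = 4.74e-13 and 2.47e-11, edgeR). In matKO 2 rose and 8 fell. Of the replacement variants 8 of 12 rose and 1 fell in WT, H2afy (macroH2A) by 5.24 ± 0.39 and H2afx by 3.69 ± 0.34, and 7 of 10 rose and 1 fell in matKO. S phase genes had 10 of 18 higher and 3 lower in each genotype, processing genes 6 of 15 higher and 5 lower in each, and chaperones 8 higher and 6 lower of 19 in WT and 7 and 5 in matKO.

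In blastocysts Hist1h4i and Hist1h1c, the leading members, had higher means in matKO without passing the test. Hist1h4i lay between 1.84 and 14.97 CPM (median 9.46) in WT and between 3.83 and 20.4 CPM (median 12.5) in matKO, a log2 change of +0.50 ± 0.25 (adjusted p = 0.260, edgeR). Hist1h1c lay between 5.07 and 26.6 CPM (median 9.71) in WT and between 0.767 and 33.05 CPM (median 12.4) in matKO, a change of +0.60 ± 0.35 (0.360). No member was without overlap between genotypes, beside 0.0446% of genes. Of 20 members tested 0 were called, beside 6.30% of 13445 genes (2.75% higher, 3.55% lower), and 0 members against 2656 genes had an unadjusted p under 0.05; DESeq2 also called 0 members. The median log2 change of the 20 members tested was +0.44, beside -0.03 for all genes tested. In oocytes that median was -0.18 beside +0.02, in 2-cell embryos +0.03 beside +0.02, and in ExE +0.54 beside -0.07. None of these medians was tested, and members share sequence.

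The blastocysts carry 2 identifier prefixes, and Hist1h2bc differed between them. In WT it lay between 0.515 and 4.08 CPM in 10 D405T libraries and between 4.87 and 16.2 CPM in 4 D707T libraries, without overlap. The share of all genes that separate between the same libraries was not computed. Among these D707T libraries the males were at 15.5, 16.2 and 14.1 CPM and the only female at 4.87 CPM. The part of sex in this gap was not tested. In matKO the order of the means was opposite, 6.95 ± 3.32 CPM in 6 D405T and 3.18 ± 2.12 CPM in 8 D707T libraries. Over all blastocysts the genotype change of Hist1h2bc was +0.31 ± 0.49 in log2 (adjusted p = 0.805, edgeR). Within D405T alone it was +1.69 (0.0330), the only member called there, and within D707T alone it was -1.72 (0.285); the difference between the prefixes was not tested. Hist1h4i kept its value within both, +0.49 in D405T and +0.50 in D707T, whereas Hist1h1c was +0.89 in D405T and -0.19 in D707T. Summed trophectoderm markers (5 genes) had medians of 4169 CPM in WT and 1752 CPM in matKO blastocysts, and their part in these values was not tested. Of the listed regulators Cstf2, a cleavage factor, fell by 0.81 ± 0.20 and Cpeb1, a cytoplasmic polyadenylation factor, by 2.11 ± 0.65 in log2, Nfyc rose by 0.58 ± 0.15 and H2afy fell by 0.58 ± 0.13 (adjusted p = 0.0111, 0.0477, 0.0154 and 0.00453, edgeR); no chaperone or S phase gene was called.

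From the blastocyst to ExE, Hist1h2bc rose in both genotypes. It went from between 0.515 and 16.2 CPM (median 3.12) in WT blastocysts to between 20.1 and 59.5 CPM (median 35.9) in WT ExE, and rose by 3.07 ± 0.48 in log2 (adjusted p = 3.07e-06, edgeR). In matKO it went from between 0.731 and 12.2 CPM (median 4.64) to between 14.6 and 78.0 CPM (median 45.5) and rose by 3.30 ± 0.40 (1.61e-07). Stages did not overlap for Hist1h2bc in either genotype. In matKO that held for 2 of 24 members tested, beside 16% of 15284 genes. In WT, ExE libraries all carry a prefix that no blastocyst carries, so prefix and stage cannot be told apart there.

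In WT 6 of 19 members were higher in ExE and 7 lower, beside 66.7% of 15557 genes called in either direction (35.7% higher, 30.9% lower). Hist3h2a, an H2A gene that overlaps Trim17, rose by 2.86 ± 0.54 (adjusted p = 4.10e-05, edgeR), Hist2h2be by 3.15 ± 0.93 (0.00405), Hist1h2be by 2.40 ± 0.82 (0.0116), Hist1h1c by 0.85 ± 0.28 (0.00892) and Hist1h4i by 0.66 ± 0.26 (0.0250). The 7 that fell were Hist1h2ae by 3.45 ± 0.64 (3.37e-05), Hist1h3c by 3.07 ± 0.73 (6.11e-04), Hist1h1a by 3.25 ± 0.98 (0.00480), Hist1h2bg by 2.83 ± 0.88 (0.00624), Hist1h3g by 3.35 ± 0.94 (0.00277), Hist1h2bl by 3.26 ± 1.05 (0.00771) and Hist1h3a by 2.47 ± 0.90 (0.0177). Apart from Hist1h2bc no member was without overlap, beside 20.6% of genes.

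In matKO 4 of 24 members were higher in ExE and 0 lower, beside 55.1% of 15284 genes called in either direction (29.8% higher, 25.2% lower). Besides Hist1h2bc these were Hist3h2a (+2.94 ± 0.67, adjusted p = 6.35e-04, edgeR), Hist1h2al (+3.18 ± 1.20, 0.0270) and Hist1h2bg (+1.52 ± 0.63, 0.0431). Hist1h2bg thus fell in WT and rose in matKO, where the call was lost with library totals only (0.0610) and without the count filter (0.0517); the difference between the steps was not tested. The call of Hist1h2al, an annotated pseudogene with 19 counts in blastocysts and 45 in ExE, was lost in D707T libraries alone (0.118). The Hist1h2ae value was -2.13 ± 1.02 (0.0777) and the Hist1h3c value -0.76 ± 0.72 (0.383). Of the processing genes 2 of 15 rose and 7 fell in WT, Slbp among them by 1.99 ± 0.27 in log2 (adjusted p = 2.45e-07, edgeR), and 2 rose and 4 fell in matKO. Replacement variants had 2 higher and 8 lower of 12 in WT and 3 and 3 in matKO, transcription genes 3 and 5 of 12 in WT and 1 and 6 in matKO, chaperones 5 and 2 of 19 in WT and 3 and 3 in matKO, and S phase genes 7 and 6 of 18 in WT and 6 and 5 in matKO.

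In ExE Hist1h2bg and Hist1h3c were higher and Hist2h2be lower in matKO than in WT. Hist1h2bg lay between 0 and 0.476 CPM (median 0.0482) in 10 WT libraries and between 0.296 and 7.57 CPM (median 1.51) in 8 matKO libraries, and rose by 4.34 ± 0.83 in log2 (adjusted p = 7.62e-04, edgeR). Hist1h3c lay between 0 and 0.609 CPM (median 0.284) in WT and between 0.124 and 3.73 CPM (median 0.731) in matKO, and rose by 2.42 ± 0.79 (0.0289). Hist2h2be lay between 0.406 and 7.27 CPM (median 0.922) in WT and between 0 and 0.518 CPM (median 0) in matKO, and fell by 2.79 ± 0.94 (0.0323). All 3 overlapped between genotypes and rest on low counts, 17 against 342, 27 against 80 and 200 against 16 over the groups. In all, 3 of 8 members tested were called, beside 24.9% of 14156 genes (14.1% higher and 10.7% lower). None of the 8 was without overlap, beside 2.88% of genes.

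The 3 abundant members did not pass in ExE. Hist1h4i lay between 10.6 and 20.8 CPM (median 15.9) in WT and between 9.10 and 36.2 CPM (median 22.5) in matKO, a log2 change of +0.65 ± 0.26 (adjusted p = 0.0659, edgeR; DESeq2 gave 0.0405). Hist1h2bc lay between 20.1 and 59.5 CPM in WT and between 14.6 and 78.0 CPM in matKO, a change of +0.62 ± 0.29 (0.123). Hist1h1c was at +0.18 ± 0.31 (0.699). The spread of all 3 was wider in matKO than in WT libraries, as far as their SDs of 10.04 against 3.04, 23.1 against 12.6 and 11.4 against 8.61 CPM show; that difference was not tested.

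Markers of uterine stroma were also higher in the matKO ExE libraries. Summed over 11 genes they lay between 15.4 and 297 CPM (median 41.3) in WT and between 34.7 and 869 CPM (median 333) in matKO, and 5 of the 9 tested were called higher. Blood markers (5 genes) had medians of 3.47 CPM in WT and 62.5 CPM in matKO, with 2 of 3 tested higher, and 2 of 5 trophectoderm and 1 of 4 epiblast markers were higher. The part of these cells in the values was not tested. The matKO library with the highest stroma level, 869 CPM, had the highest Hist1h2bg level, 7.57 CPM, and the one with the lowest, 34.7 CPM, had the lowest Hist1h2bg level, 0.296 CPM. The matKO library second in stroma markers, at 674 CPM, had 1.57 CPM of Hist1h2bg, and the WT library with the most, 297 CPM, had 0 counts of it. Hist1h3c did not follow that order: its highest value, 3.73 CPM, was in a library with 79.3 CPM of stroma markers. A fit chosen after seeing the data left out the 4 matKO libraries above every WT library in stroma markers, and none of the 3 calls held. Hist1h2bg was at +2.71 (adjusted p = 0.0832, edgeR), Hist1h3c at +2.94 (0.0579) and Hist2h2be at -1.74 (0.202). With all libraries the Hist1h3c value was smaller, +2.42. That fit has fewer matKO libraries, so the lost calls cannot be told apart from an effect of group size. In the fit without the 4 libraries Hist1h2bc was at -0.06, and 1 other member, Hist1h2al, was called (+4.22, adjusted p = 0.0377). Leaving out female matKO replicate 4 or male matKO replicate 3 also left 1 call, Hist1h2bg. Hist2h2be was lost in 6 of the fits that left out 1 library, WT female 6, WT male 2, matKO female 4 and 5 and matKO male 1 and 3 (adjusted p up to 0.0743, edgeR). Hist1h3c was lost without matKO male 3 (0.0989), without the count filter (0.0530) and with the replicate block (0.103). Genotype cannot be told apart from the identifier prefix in any of these values.

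**Figure D5:**
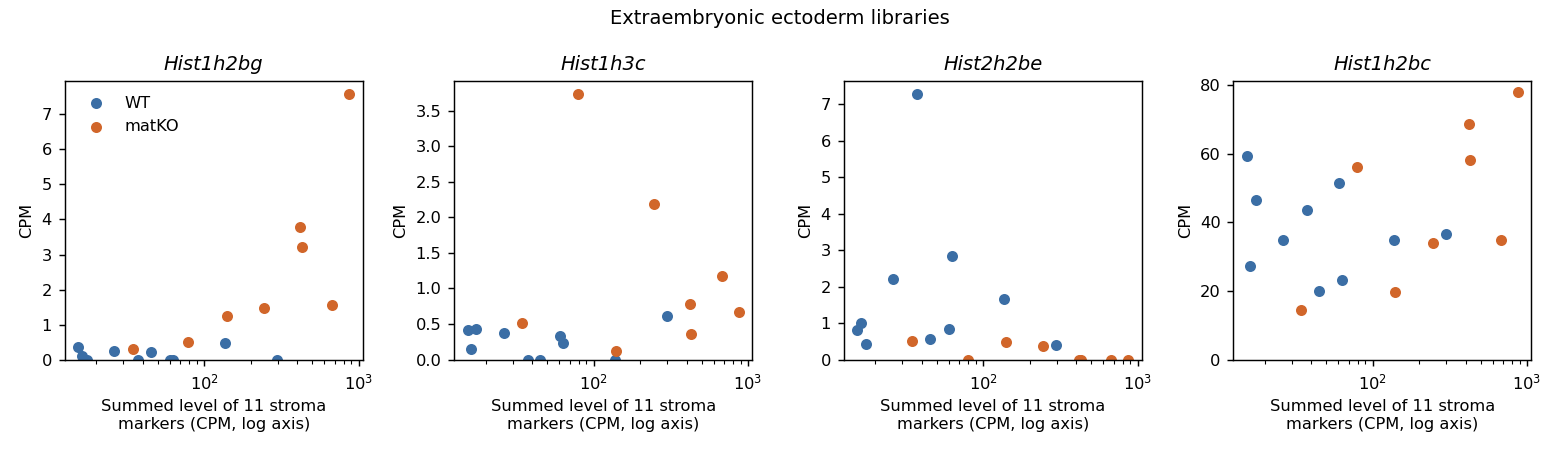
Level of Hist1h2bg, Hist1h3c, Hist2h2be and Hist1h2bc (CPM) in each ExE library against the summed level of 11 stroma markers (CPM, log axis); each point is 1 library, coloured by genotype. The 4 matKO libraries furthest right, above the highest WT library at 297 CPM, include the 3 highest Hist1h2bg values.

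Listed histone regulators in ExE had calls in both directions. Of 15 processing genes 4 were higher in matKO and 2 lower, among them Upf1, the helicase of nonsense-mediated and histone mRNA decay (+1.52 ± 0.30, adjusted p = 8.67e-04, edgeR), and Papola, the poly(A) polymerase (-0.68 ± 0.22, 0.0250). Of 11 replacement variants tested 5 were higher and 0 lower, including H3f3a, one of the H3.3 genes (+2.37 ± 0.44, 7.48e-04), and H1fx (+4.01 ± 0.69, 2.49e-04). Chaperones had 4 higher and 2 lower of 19, with Chaf1a, a subunit of the replication-coupled assembly factor, at +2.97 ± 0.66 (0.00258). Transcription genes had 1 higher, E2f1, and 1 lower, Nfyb, of 12, and S phase genes 2 higher and 1 lower of 18. These calls stand beside 24.9% of all genes called, and share the same stroma levels and prefix. In oocytes none of the 5 lists had a call.

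Female and male embryos did not differ detectably in their response to the genotype. The genotype-by-sex difference called 0 of 7 members in 2-cell embryos (beside 0% of 14506 genes), 0 of 20 in blastocysts (beside 0.00744%) and 0 of 8 in ExE (beside 0%) in edgeR's test. No member had an unadjusted p under 0.05 there, against 930, 359 and 513 genes in the same order.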

How the data were processed

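The deposited tables, 1 per stage, hold whole-number counts per gene with each gene's mm10 coordinates and counted length. The authors used Trim Galore, STAR, SAMtools and featureCounts on mm10, per the submitters' processing notes; the sources used here do not give versions, annotation release, strand or multiple-match settings. RNA was polyadenylated, and libraries were made with an Accel-NGS 2S dual-index kit, per the labels. The tables also have 8 count columns that match no sample, which were not used. Library totals were 5273706 to 26484630 counts for oocytes, 1049224 to 14127560 for 2-cell embryos, 4061206 to 31985958 for blastocysts and 2736211 to 26674539 for ExE, so 1 count is about 1 CPM in the shallowest library; intervals and floors cover counting error only.

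Levels are CPM of the library total, as mean ± SD or range. Fold changes come from edgeR 4.0.16 (R 4.3.3): filterByExpr (minimum count 10), TMM scaling, estimateDisp, and the quasi-likelihood test, with Benjamini-Hochberg adjustment over all genes tested and a threshold of 0.05. The model held sex (2-cell, ExE, and the later steps) or sex and identifier prefix (blastocyst genotype); the oocyte fit and the step from oocyte to 2-cell embryo had no covariate. Steps between stages were fitted within a genotype. The script was tested on simulated data. Alternatives were DESeq2 1.42.0, other scalings, no filter, a replicate block, single prefixes and leaving out libraries; 3 based on granulosa or stroma markers were chosen after seeing the data. Same-numbered samples did not deviate together at every pair, and the numbers were not used to pair samples. Stem-loops and shared 50-base windows were searched in GENCODE M21 transcripts, and sequences were printed from those and from RefSeq.

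The members and lists were chosen with earlier results of these data known. Text names Ezhip, members called in a genotype comparison, the 6 highest members per stage by CPM per kb, the 5 largest changes per step among called members with a mean of at least 5 CPM, linker and testis-type members, and up to 4 called genes per list with the smallest p; other members were named after their values were seen.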

Additional observations from a re-analysis of the deposited data

Results flagged for a closer look

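Single libraries stood far from the rest of their group in 4 of 39 groups checked for Hist1h2bc, other leading members and the summed level; chance alone gives about 1 in 20. Female matKO 2-cell replicate 6 had a summed histone level of 74.48 CPM, against 23.15 for the next of 6 embryos. In the same embryo Hist1h4i was at 41.85 CPM, against 6.53 for the next. Female matKO oocyte replicate 2 had Hist1h2bc at 197.6 CPM, against 146.4 for the next of 4 oocytes, and it still lay below every WT oocyte. Female WT ExE replicate 3 had Hist1h1c at 39.36 CPM, against 20.29 for the next of 6 samples. That library also had the highest WT levels of stroma markers (297 CPM) and granulosa markers (538 CPM), whose part in the value was not tested.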

How the results depend on the processing

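The number of members called was within 1.5 times that reported in all settings other than these. Without the count filter, which lets low genes in, 1 member was called in the blastocyst genotype comparison (Hist3h2ba, -2.48, adjusted p = 0.0495, edgeR) and 7 in ExE; 14, 35 and 24 in the WT steps from oocyte to ExE; and 18, 32 and 7 in the matKO steps. D405T libraries alone gave 1 call in blastocysts, and D707T libraries alone 4 in the matKO step to the blastocyst. edgeR without estimateDisp gave 11 in the WT step from the oocyte. ExE without the 4 stroma-high matKO libraries gave 1, and leaving out single libraries 1 to 4. Leaving out single oocytes gave 5 to 6 calls in the WT step and 3 to 4 in the matKO step. Signs turned in D707T blastocysts for Hist1h1c (-0.19) and Hist1h2bc (-1.72) and for Hist1h2bc in ExE without the stroma-high libraries (-0.061); the cause was not tested. With the replicate block, on samples whose number occurs in both genotypes, 0 members were called in oocytes, 2-cell embryos and blastocysts and 1 in ExE; of same-numbered pairs, 2 of 3, 3 of 11, 9 of 13 and 1 of 8 correlated above 0.1.

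Calls of single members were also lost in the steps. Hist1h2bk in the WT step from the oocyte was lost when any WT oocyte was left out and with library totals only (adjusted p = 0.0637, edgeR). Hist1h4a was lost without WT oocyte replicate 2 (0.127) and without each matKO oocyte in turn. In DESeq2 Hist3h2a (0.0772) and Hist1h2aa (0.0584) were lost in WT and Hist1h4a (0.0691) in matKO. Hist1h2bc in the matKO step to the blastocyst was lost with library totals only (0.0917) and in D707T alone (0.136), as was Hist1h3f there (0.125). In the WT step to the blastocyst Hist1h2bg was lost with RLE scaling (0.0587) and library totals only (0.145), Hist1h3f without the filter (0.0612) and in D707T alone (0.159), and Hist1h3a in D707T alone (0.0671). In the steps to ExE, Hist1h4i in WT was lost without the filter (0.0667) and Hist1h2al in matKO without estimateDisp (0.0595). Library totals only shifted the median of all genes from the 2-cell stage to the blastocyst by -0.50 in WT and -0.66 in matKO, with 3941 higher and 7530 lower genes in WT in place of 5095 and 6379, and 3769 and 7251 in matKO in place of 5063 and 5935; there, 1 of 13 members changed sign in WT. Depth limits the 2-cell embryos most, where 1 count is worth up to about 1 CPM.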
